A study of Homo sapiens with 12 samples.

Results

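The genes described here are the long intergenic noncoding RNA (LINC) genes that were expressed while the human embryonic stem cell line H1 was differentiated toward blood. They were chosen from the deposited expression table by their symbol, LINC followed by digits only, and by a mean of at least 3 FPKM in the 3 libraries of at least 1 of the 4 cell populations. FPKM, fragments per kilobase of transcript, scaled to the mapped fragments of the library, is an expression level already divided by transcript length. The choice left 55 LINC genes, 2.95% of the 1867 LINC symbols in a table of 56593 distinct symbols. Of the other LINC symbols, 815 were listed at 0 in all 12 libraries. Since their level chose the 55 genes, their levels are given below as a description.

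The 4 populations, all from the same line, were profiled by RNA-seq, with 3 libraries each. The H1 libraries came from undifferentiated cells. The APLNR+ cells, mesoderm that carries the apelin receptor, were collected on day 2 of differentiation with activin A and BMP4. The CD31+CD34+ cells, endothelial progenitors with blood-forming potential, were taken on day 5 and the CD43+ cells, early hematopoietic progenitors, on day 8, after the medium had been changed to VEGF and bFGF. All populations derived from the single line H1, and no label names a genetic change. No label says that replicate libraries came from separate cultures, so that p-values measure only the spread between these libraries, which may be technical.

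LINC symbols are place-holder names that human gene nomenclature gives to long RNAs transcribed from between the protein coding genes when no better name is known. Such RNAs are made by RNA polymerase II and, like messenger RNAs, are usually capped, spliced and polyadenylated. Most are made at low levels and in few cell types. Some act on chromatin or transcription near the place where they are made, some serve as precursors of microRNAs or small nucleolar RNAs, and a few have turned out to encode small proteins.

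Most defining markers followed the labels of the populations. POU5F1, the pluripotency factor OCT4, had a mean of 1002 FPKM in H1 and 12.5 in CD43+ cells, APLNR went from 0.528 in H1 to 383 in APLNR+ cells (and stayed at 403 at the CD31+CD34+ stage), CDH5, an endothelial cadherin, was at 96.8 in CD31+CD34+ cells, and SPN, which encodes CD43 itself, was at 75.5 in CD43+ cells. PECAM1, which encodes CD31, was at 55.2 in CD31+CD34+ cells and higher, at 95.9, in CD43+ cells, so that neither it nor APLNR had its highest mean in the population sorted by it. PTPRC, which encodes the pan-leukocyte antigen CD45, had means of 0.197 FPKM at most. Among 5 short marker lists of other cell types, the cardiac list (TNNT2 and MYL7) summed to 92.7 to 124 FPKM in the APLNR+ libraries. Most of that was MYL7, at a mean of 108, whereas TNNT2 was at 2.63 there and highest in H1, at 4.91. In the CD31+CD34+ libraries the stromal list (COL1A1 and DCN) summed to 75.7 to 90.5, with DCN near 0. The endoderm list (FOXA2, SOX17 and TTR) summed to 21.8 to 29.6 there. Most of it was SOX17, at a mean of 24.2, with FOXA2 at 0.899 and TTR at 0.205. The neural and macrophage lists stayed under 0.65 FPKM in every library. Any part of these other cells in the levels given below was not tested. Replicate 1 was the shallowest library of each population, judged from the spacing of the lowest values. In bulk RNA, a lower share of expressing cells and less RNA per cell cannot be told apart.

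The 55 genes spanned a wide range of levels. Their highest population means ran from 3.05 to 200.1 FPKM with a median of 5.10. Only 17 genes reached 10 FPKM and 4 reached 50, namely LINC00678, LINC00467, LINC00116 and LINC00458, whereas 27 stayed under 5. H1 held the highest mean of 17 genes, APLNR+ cells of 14, CD31+CD34+ cells of 9 and CD43+ cells of 15. Among all 12023 tested genes that reached 3 FPKM, the share with its highest mean in APLNR+ cells was 17.2%, against 25.5% of the LINC genes, and the share in CD31+CD34+ cells was 26.0%, against 16.4%. The number of LINC genes at 3 FPKM or more was similar in the 4 populations, with 31 in H1, 29 in APLNR+ cells, 29 at the CD31+CD34+ stage and 27 in CD43+ cells. Only 12 of them were at this level in all 4 populations, and 25 were at it in 1 alone. The highest population did not overlap the second, library by library, in 34 genes (61.8%), beside 58% of all 14840 genes tested. Just inside the limit stood LINC00632 at 3.05 FPKM in APLNR+ cells and LINC01521 at 3.07 in CD31+CD34+ cells, and just outside it LINC00294 at 2.98 and LINC01894 at 2.86, both in APLNR+ cells.

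**Figure D1:**
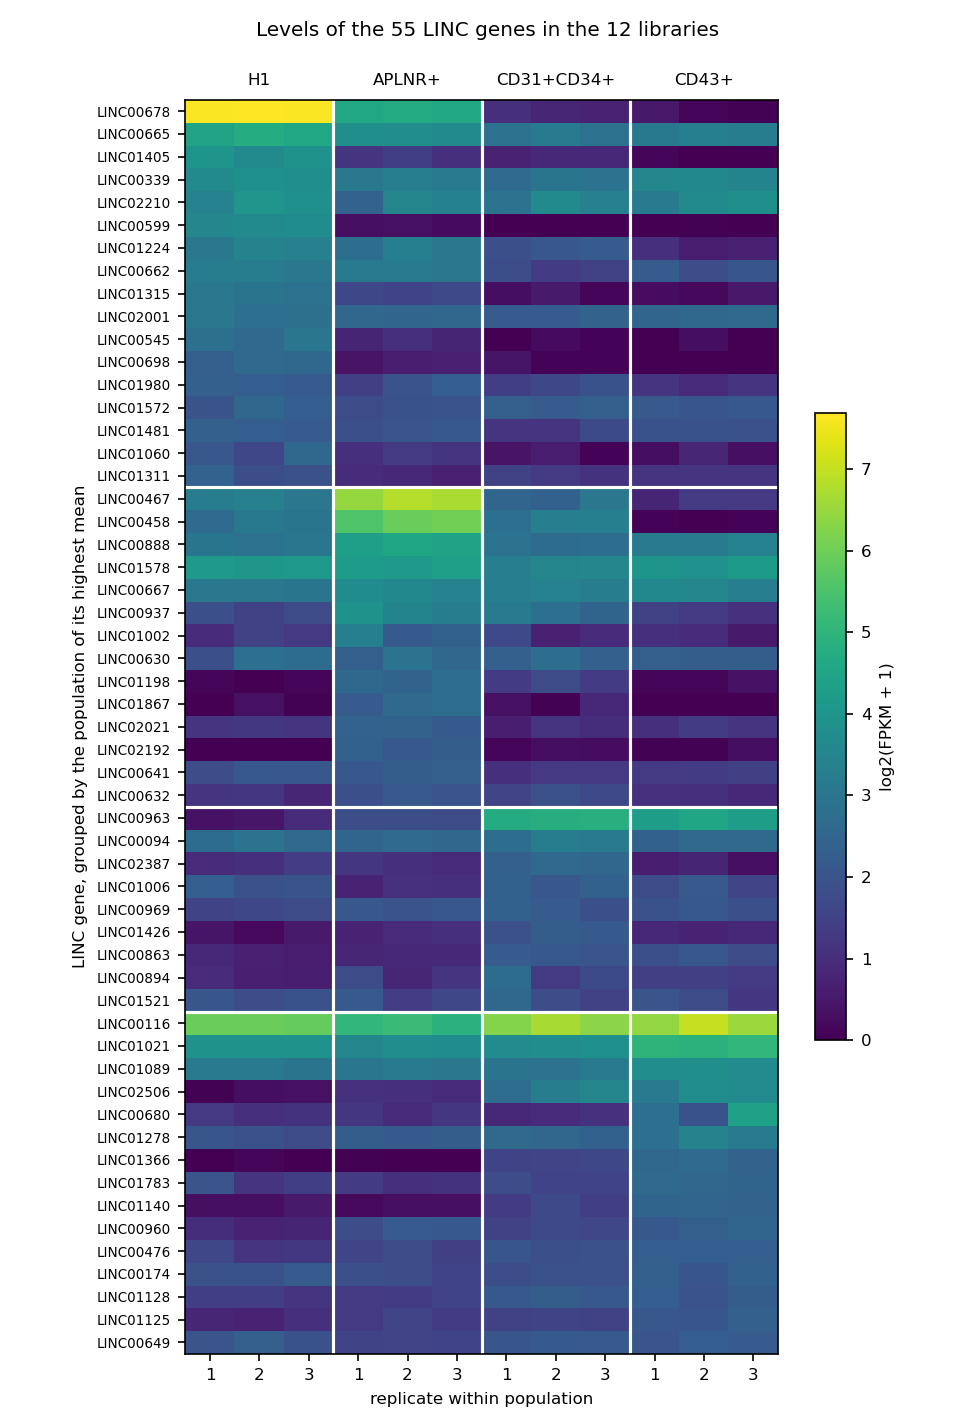
Level of each of the 55 LINC genes (rows, grouped by the population of their highest mean) in each of the 12 libraries (columns, replicates 1 to 3 of each population), as log2(FPKM + 1). Replicates resembled each other in most genes, but those of LINC00680, LINC00894, LINC01002 and LINC01521 were uneven in the population of their highest mean. Of the 4 genes that reached 50 FPKM, LINC00678, highest in H1, and LINC00467 and LINC00458, highest in APLNR+ cells, were low or near 0 in CD43+ cells, whereas LINC00116 was highest there.

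The RNAs of the undifferentiated cells were led by LINC00678, a transcript known from pluripotent cells whose function is not established. Its level was 199, 205 and 197 FPKM in the 3 H1 libraries, 23.2, 25.6 and 23.2 in APLNR+ cells, 1.05, 0.762 and 0.675 at the CD31+CD34+ stage and 0.435, 0.101 and 0.0410 in CD43+ cells. The populations did not overlap, and each was lower than the population before it. On the log2(FPKM + 1) scale, which understates changes of low genes, the step from H1 to APLNR+ cells was -3.01 ± 0.12 (SE) and the step to CD31+CD34+ cells was -3.78 ± 0.12. LINC00599, the host transcript of the neuronal microRNA miR-124, was more sharply limited to H1. It stood at 10.9, 11.8 and 12.2 FPKM in H1, at 0.166 to 0.275 in APLNR+ cells and at 0 to 0.0281 in the 6 later libraries. LINC01405, which RefSeq now names VHRT, had a mean of 13.5 ± 1.78 FPKM (SD, n = 3) in H1, 1.34 ± 0.288 in APLNR+ cells and 0.758 ± 0.0898 in CD31+CD34+ cells, and 2 of the 3 CD43+ libraries listed it at 0.

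Other genes with their highest mean in H1 were lowered more gently or stayed. LINC00665, best known from tumors, had means of 23.7 ± 2.37 FPKM in H1, 12.4 ± 0.822 in APLNR+ cells, 6.80 ± 0.826 at the CD31+CD34+ stage and 8.34 ± 0.674 in CD43+ cells. LINC00662 kept its level from H1 (8.18 ± 0.605 FPKM) to APLNR+ cells (7.63 ± 0.288), with overlapping libraries, and was then at 1.98 ± 0.502 in CD31+CD34+ cells. LINC00339 was at 12.8 ± 0.887 FPKM in H1 and 10.5 ± 0.468 in CD43+ cells, and its means were lower at both stages between. LINC02210 varied as much within as between populations, from 9.51 to 14.9 FPKM in H1 and from 4.28 to 10.2 in APLNR+ cells, and its replicate 1 was the lowest in each population. Below these, LINC00545 and LINC00698, singled out after their values were seen, had means of 6.14 and 4.77 FPKM in H1 and were under 0.16 in both later populations.

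The mesoderm stage was marked by LINC00467 and LINC00458. LINC00467, a transcript described in neuroblastoma and other tumors, read 8.33, 9.11 and 7.34 FPKM in H1 and 87.9, 113.6 and 104.4 in APLNR+ cells. It then read 4.66, 4.18 and 7.24 at the CD31+CD34+ stage and 0.719, 1.46 and 1.45 in CD43+ cells. LINC00458, an RNA described in human embryonic stem cells, read 5.49, 7.58 and 6.99 FPKM in H1, 46.0, 61.5 and 64.8 in APLNR+ cells, 6.04, 8.71 and 8.995 in CD31+CD34+ cells, and at most 0.0575 in CD43+ cells. Both RNAs were thus far higher on day 2 than in H1, with no overlap of libraries, and the H1 and CD31+CD34+ libraries of LINC00458 overlapped each other.

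LINC00888, which RefSeq lists as the small nucleolar RNA host gene SNHG33, had means of 6.82 ± 0.331, 20.5 ± 1.39, 6.00 ± 0.497 and 8.49 ± 1.01 FPKM in H1, APLNR+, CD31+CD34+ and CD43+ cells, so that only the APLNR+ mean stood apart by more than 2-fold. LINC00937 had a mean of 11.0 ± 2.97 FPKM in APLNR+ cells and 6.25 ± 1.83 in CD31+CD34+ cells, against 2.33 ± 0.435 in H1 and 1.48 ± 0.337 in CD43+ cells. Some RNAs of low level also peaked at the APLNR+ stage. LINC01198 was at 5.07, 4.46 and 5.76 FPKM there and at 0 to 0.0773 in H1, with 1.53 to 2.36 left in CD31+CD34+ cells. LINC01867 and LINC02192, singled out after their values were seen, had APLNR+ means of 4.88 ± 1.10 and 3.81 ± 0.483 FPKM, and no other population had a mean above 0.38 for either. In all 3 CD43+ libraries LINC01867 was listed at 0.

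In the CD31+CD34+ cells the highest RNA was LINC00963, a transcript described in prostate and other cancers. Its levels were 0.302, 0.384 and 0.941 FPKM in H1, 2.58, 2.63 and 2.46 in APLNR+ cells, 25.3, 26.7 and 27.1 at the CD31+CD34+ stage and 18.4, 22.0 and 18.3 in CD43+ cells. It was higher at each of the first 2 steps without overlap, and most of its level remained in CD43+ cells. LINC02387 and LINC01426 were in contrast higher at this stage than at any other. LINC02387 read 4.07, 5.15 and 4.86 FPKM in CD31+CD34+ cells, with means of 1.20 ± 0.395 in H1, 1.10 ± 0.215 in APLNR+ cells and 0.506 ± 0.249 in CD43+ cells. LINC01426, which lies beside the blood master gene RUNX1, read 2.76, 3.82 and 3.54 FPKM, against means of 0.322 ± 0.157, 0.883 ± 0.182 and 0.775 ± 0.104 in H1, APLNR+ and CD43+ cells. LINC01006, listed by RefSeq as RNF32-DT, was lowest in APLNR+ cells, at 0.960 ± 0.231 FPKM, and had similar means of 3.20 ± 0.636 in H1 and 3.93 ± 0.577 in CD31+CD34+ cells. LINC00094 and LINC00969 varied little, between 4.98 and 7.42 FPKM and between 2.21 and 3.48 FPKM over the 4 means.

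The CD43+ cells were led by LINC00116, which belongs to a gene now called MTLN and encodes mitoregulin, a small protein of the inner mitochondrial membrane. LINC00116 read 59.5, 59.3 and 57.4 FPKM in H1, 32.8, 36.6 and 28.9 in APLNR+ cells, 76.3, 101.0 and 80.1 at the CD31+CD34+ stage and 85.0, 127 and 91.8 in CD43+ cells. The last 2 populations overlapped. LINC01021, the p53-responsive RNA PURPL, was even in the first 3 populations, at 10.8 to 14.6 FPKM, and read 30.8, 29.7 and 32.7 in CD43+ cells. LINC02506 was at 0.0322 to 0.257 FPKM in H1, 0.924 to 1.14 in APLNR+ cells, 5.74 to 10.2 at the CD31+CD34+ stage and 8.07 to 12.5 in CD43+ cells, where the last 2 ranges overlapped.

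LINC01366 was almost absent before the endothelial stage, with 0 in 4 of the 6 libraries of H1 and APLNR+ cells and at most 0.0853 FPKM in the others. It then read 2.00, 2.06 and 2.18 FPKM at the CD31+CD34+ stage and 5.07, 5.46 and 4.48 in CD43+ cells. LINC01278 had means of 2.74 ± 0.393, 3.70 ± 0.127, 4.78 ± 0.521 and 7.91 ± 1.83 FPKM in H1, APLNR+, CD31+CD34+ and CD43+ cells. LINC01089 was at 7.15 to 7.55 FPKM in the first 3 means and at 12.6 ± 0.576 in CD43+ cells. LINC00680 rested on an uneven group, since the 3 CD43+ libraries read 5.95, 2.81 and 20.0 FPKM while all other libraries were at 0.800 to 1.40.

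**Figure D2:**
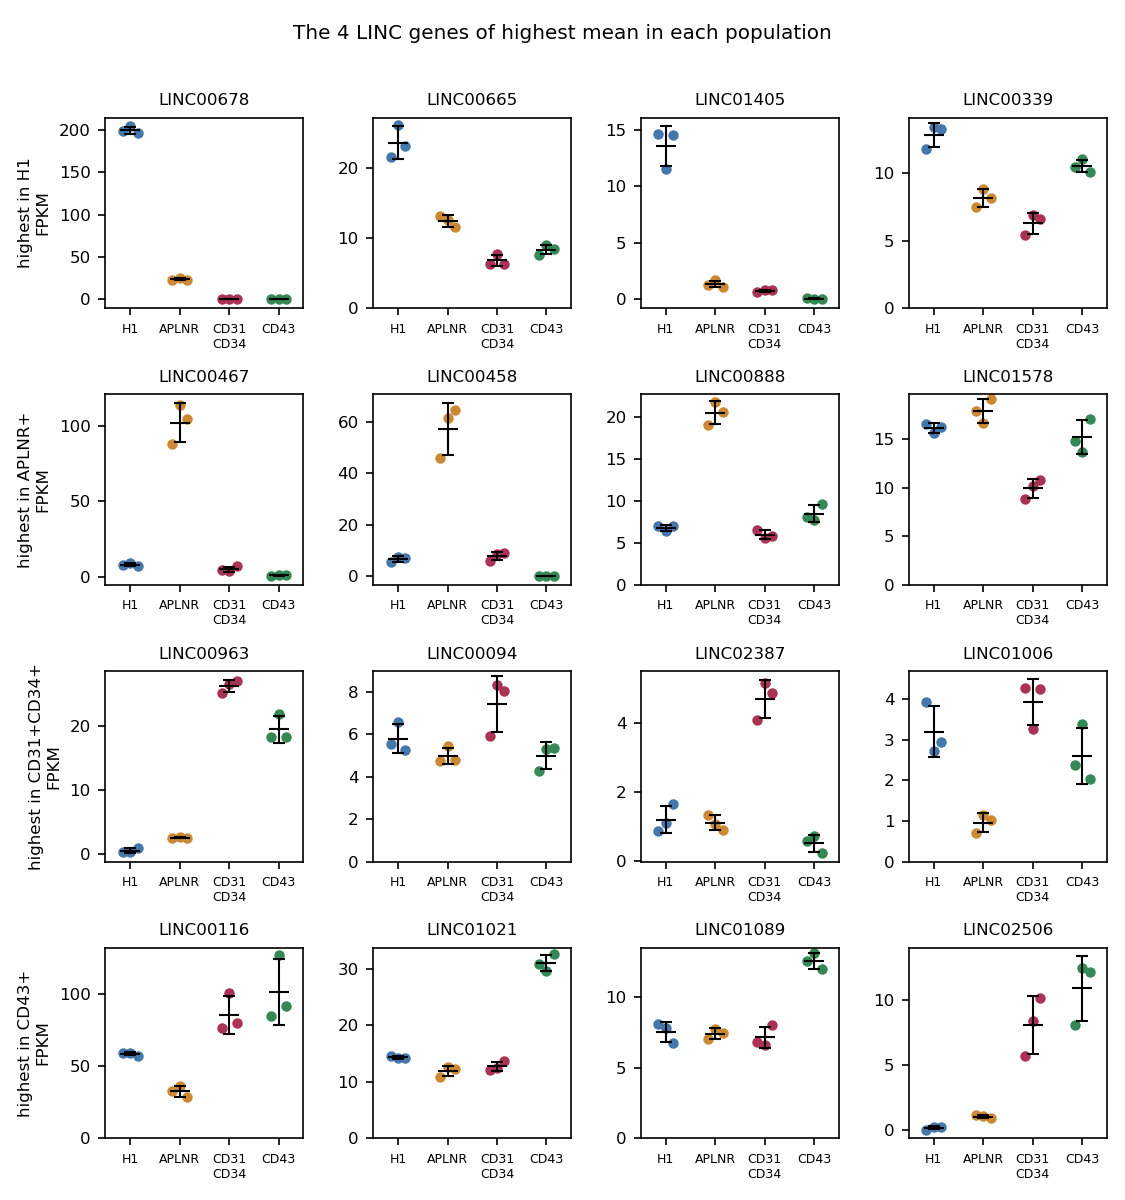
FPKM of the 4 LINC genes of highest mean within each set, in rows by the population of the highest mean. Points are the 3 libraries of a population and bars the mean ± SD. The H1 row falls from the 200.1 FPKM mean of LINC00678, LINC00467 and LINC00458 peak in the APLNR+ libraries, and LINC00116 is well above 0 everywhere.

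A few LINC genes had similar means in the 4 populations. The 4 with the smallest range of population means on the log2(FPKM + 1) scale were LINC01521 (range 0.31), LINC00630 (0.33), LINC01572 (0.39) and LINC00969 (0.48). Single libraries spread more, from 1.33 to 4.91 FPKM for LINC01521 and from 2.66 to 6.61 for LINC00630. Of the more abundant RNAs, LINC01578 was at 16.2 ± 0.469, 17.9 ± 1.24, 9.96 ± 0.988 and 15.2 ± 1.74 FPKM in H1, APLNR+, CD31+CD34+ and CD43+ cells. Its CD31+CD34+ libraries were below all others. With genes over 10000 FPKM left out, it was called lowered from APLNR+ to CD31+CD34+ cells, at a log2 change of -1.01. It is the RNA named CHASERR, which is known to hold down the neighboring chromatin remodeler gene CHD2. LINC00667 lay between 7.19 and 11.1 FPKM over its 4 means. In all, 16 of the 55 genes had a range under 1 on this scale, 21 from 1 to under 2, and 18 a range of 2 or more.

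Changes between consecutive populations were fitted with limma over all 14840 genes at 1 FPKM or more in at least 3 libraries, which all 55 LINC genes passed. To be called raised or lowered, a gene had to differ by 2-fold or more on log2(FPKM + 1), with a Benjamini-Hochberg adjusted p below 0.05. Because a gene that qualifies only by its level in a compared population is already more likely to differ, the counts over the 55 genes are a description.

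From H1 to APLNR+ cells, 11 LINC genes were raised and 8 lowered, beside 8.3% and 7.62% of all genes tested (20.0% and 14.5% of the 55). Their median change was -0.02, beside -0.12 for all genes. At the next step, from APLNR+ cells to the CD31+CD34+ stage, 9 were raised and 12 lowered, 16.4% and 21.8% of the 55, beside 12.5% and 17.1% of all genes, with medians of -0.22 and -0.01. From CD31+CD34+ to CD43+ cells, 2 were raised (LINC01021 and LINC00680) and 7 lowered. These were 3.6% and 12.7% of the 55, beside 5.58% and 8.79% of all genes. Without CD43+ replicate 3 the count of raised genes in this step was 4, since LINC01366 and LINC01140 then passed the 2-fold limit. That same library carried the highest LINC00680 value, and the log2 change of LINC00680 was 2.09 with it and 1.41 without it. Over the whole course from H1 to CD43+ cells, 11 were raised and 13 lowered, 20.0% and 23.6% of the 55, beside 14.6% and 22.5% of all genes. The last step thus had the fewest calls among the LINC genes, as it also had over all genes tested.

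**Figure D3:**
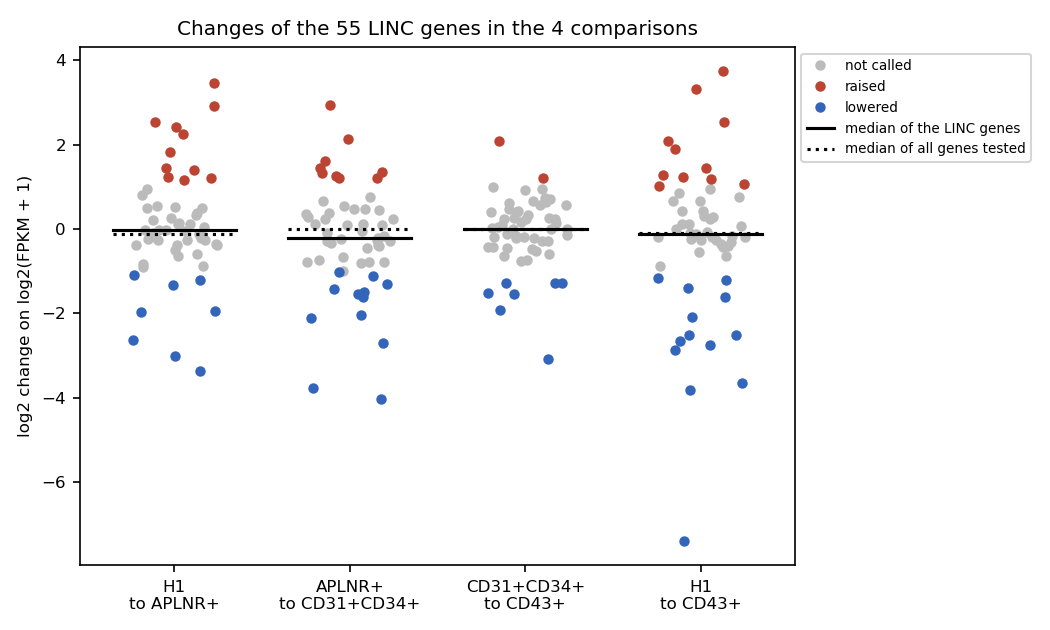
Fitted log2 change (log2(FPKM + 1)) of each of the 55 LINC genes in the 4 comparisons, with raised genes in red, lowered genes in blue and the others in gray. Solid lines are medians of the LINC genes and dotted lines those of all 14840 genes, and the lowest point, at -7.41, is LINC00678 between H1 and CD43+ cells.

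A count that does not use the choice of genes was taken over those LINC genes that reached 3 FPKM in a population outside the comparison. From H1 to APLNR+ cells, 7 of 38 such genes were called (18.4%), beside 13% of the 10357 genes of all kinds that met the same condition. LINC00467 rose by a log2 change of 3.47 ± 0.19 (SE, adjusted p = 1.52e-08), LINC00458 by 2.92 ± 0.16 (adjusted p = 2.2e-08) and LINC00937 by 1.83 ± 0.21 (adjusted p = 1.13e-05). LINC00888, LINC00963 and LINC00960 were the other raised genes, at 1.46, 1.23 and 1.20. The single lowered gene of this set was LINC01006, at -1.10 ± 0.16 (adjusted p = 0.000104), and that call was lost without H1 replicate 1 (-0.98) and without APLNR+ replicate 1 (just under 2-fold).

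From APLNR+ to CD31+CD34+ cells, 13 of 42 such genes were called (31.0%), beside 32.6% of 11243 genes. LINC00963 rose by 2.94 ± 0.14 (adjusted p = 3.66e-09), LINC02506 by 2.13 ± 0.19 (adjusted p = 8.96e-07) and LINC01366 by 1.61 ± 0.08 (adjusted p = 9.39e-09). LINC00116, LINC01006 and LINC01140 rose by 1.36, 1.33 and 1.22. The lowered genes of this set were LINC00467 at -4.04 ± 0.19 (adjusted p = 3.56e-09), LINC00678 at -3.78 ± 0.12 (adjusted p = 1.82e-10) and LINC00458 at -2.71 ± 0.16 (adjusted p = 3.2e-08), then LINC00888, LINC00662, LINC01315 and LINC00641 at -1.62, -1.55, -1.31 and -1.02. The LINC00641 call was lost in 3 of the fits that left out a library, APLNR+ replicate 2 or 3 or CD31+CD34+ replicate 1.

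From CD31+CD34+ to CD43+ cells, 6 of 41 such genes were called (14.6%), beside 13.3% of 10872 genes. PURPL (LINC01021) was the only one raised, by 1.22 ± 0.08 (adjusted p = 1.77e-07). LINC00458 fell by 3.09 on the log2 scale (SE 0.16, adjusted p = 1.94e-08), and LINC00937, LINC00467, LINC01198 and LINC01224 were at -1.53, -1.52, -1.28 and -1.27. From H1 to CD43+ cells, 12 of 40 were called (30.0%), beside 37.8% of 10959 genes. Raised were LINC00963 at 3.76 ± 0.14 (adjusted p = 1.94e-10), LINC02506 at 3.33 ± 0.19 (adjusted p = 1.03e-08), LINC00960, LINC01278, LINC00863 and LINC01021. Lowered were LINC00678 at -7.41 ± 0.12 (adjusted p = 5.61e-13), LINC00458, LINC01224, LINC00467, LINC00665 and LINC00662. In each comparison the share of the LINC genes was thus near that of other genes, and no difference between these shares was tested.

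The genes whose course over the 12 libraries was most like that of the leading RNA of each population were found by the distance between profiles of log2(FPKM + 1) scaled to mean 0 and SD 1. Nearest to LINC00678 were FAM129A (distance 0.166), KIF21A (0.206) and NAA50 (0.224), of which KIF21A had means of 8.92, 3.39, 0.597 and 0.315 FPKM in H1, APLNR+, CD31+CD34+ and CD43+ cells. Nearest to LINC00467 were ACSS3 (0.438), CNTNAP2 (0.484) and JAKMIP1 (0.488), and ACSS3 had 21.4 FPKM in APLNR+ cells against 7.28 in H1. Nearest to LINC00963 were ATP6AP1, SMTN and NID1 (0.362 to 0.387). SMTN, which encodes the contractile protein smoothelin, had means of 3.68, 8.33, 45.6 and 40.8 FPKM. Among the genes nearest to LINC00116 were the transcription factor gene USF1 (0.525) and the ribosomal protein gene RPL35 (0.548).

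As LINC genes lie between coding genes, their neighbors were examined in the order of the RefSeq annotation of GRCh38.p14, with no coordinates carried over, since the reads had been aligned to hg19. Of 63 flanking coding genes that reached 3 FPKM, 21 (33.3%) had their highest mean in the same population as the LINC gene. Among all 11622 adjacent gene pairs of any kind at this level, the share was 36.6%. By population, 6 of 17 neighbors matched for genes highest in H1, 6 of 15 for APLNR+, 5 of 12 for CD31+CD34+ and 4 of 19 for CD43+ cells. The shares of 33.3% and 36.6% were built differently. The LINC pairs took only flanking coding genes, without overlapping ones, whereas the other pairs took genes of any kind. They therefore do not show whether LINC genes matched their neighbors more or less often than other genes did, and no test of this was made.

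Single pairs differed widely, and those given here were picked after their values were seen. IER5L, the coding gene on 1 side of LINC00963 at 310 kb, had means of 0.310 ± 0.0757, 3.75 ± 0.659, 19.8 ± 3.60 and 6.45 ± 1.06 FPKM. Both genes were highest in CD31+CD34+ cells, but LINC00963 kept more of its level in CD43+ cells, at 19.6 after 26.4 FPKM. LCP2, which encodes the blood cell adaptor SLP-76 and lies next to LINC01366, was at 0.0899 and 0.0175 FPKM in H1 and APLNR+ cells and at 9.87 ± 0.874 and 25.9 ± 3.39 in the later 2, so that both genes of the pair appeared at the same stage. RUBCNL, next to LINC01198, was highest in APLNR+ cells at 7.79 ± 0.652 FPKM. RUNX1 was at 9.29 ± 0.868 FPKM at the CD31+CD34+ stage and 37.9 ± 2.25 in CD43+ cells, where its neighbor LINC01426 was back at 0.775. EOMES, a mesendoderm factor next to LINC01980, was at 56.5 ± 4.28 FPKM in APLNR+ cells and 0.0684 in H1, whereas LINC01980 was at 2.87 ± 1.09 and 3.91 ± 0.208. CHD2, next to LINC01578, was highest in APLNR+ cells (26.0 ± 0.232 FPKM) as LINC01578 was, and was at 12.7 ± 1.45 in CD43+ cells.

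**Figure D4:**
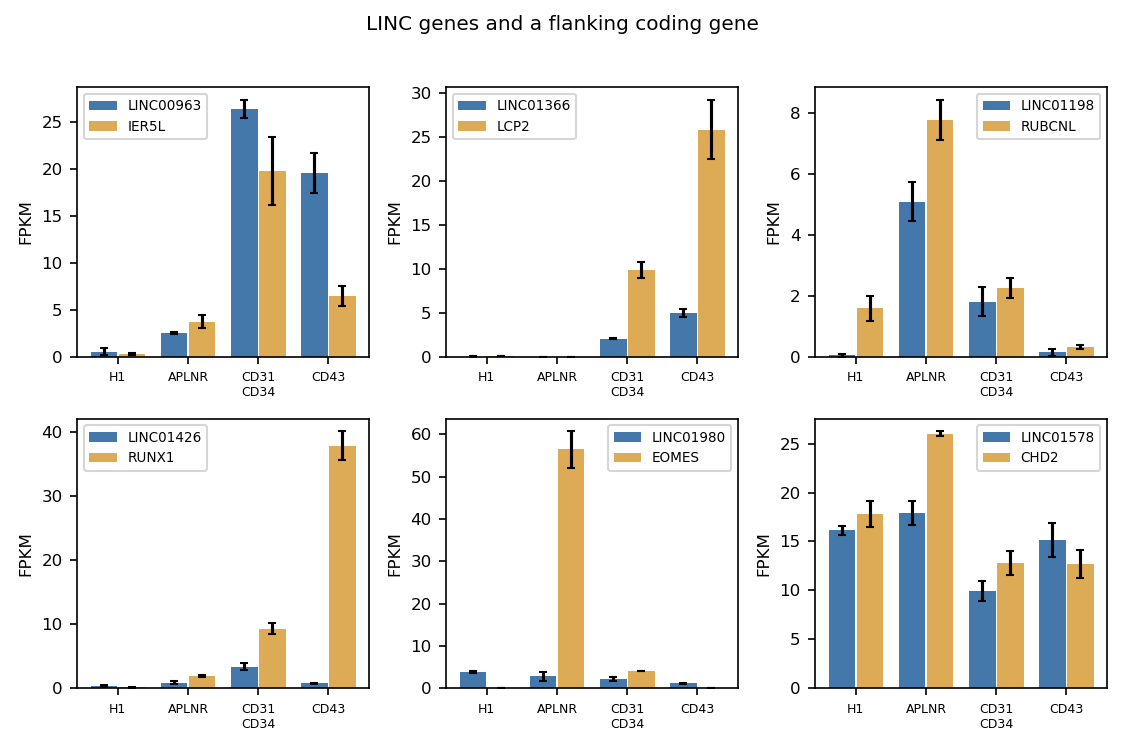
Mean FPKM ± SD (n = 3) of 6 LINC genes (blue) and a flanking coding gene (yellow) in the 4 populations. The upper pairs peak in the same population, while RUNX1 is highest in CD43+ cells, at 37.9 FPKM, and EOMES in APLNR+ cells, at 56.5 FPKM, and neither LINC neighbor peaks there.

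All 55 symbols were found in RefSeq, 41 as the current symbol and 14 as an older one. RefSeq types 52 of them as lncRNA and 3 as protein coding, which are LINC00116 (MTLN), LINC00094 (BRD3OS) and LINC01125 (C2orf92), so that the name LINC does not hold for these 3. In 10 of the 55, a coding gene overlaps the LINC gene. Counting is not stated to use strand, and reads of a LINC gene and of an overlapping or antisense partner could then not be told apart. In 14 genes, at least 15% of the 50-base stretches of the exons also occur in another gene, up to 69.9% for LINC01002 (shared most with FAM157A), 53.9% for LINC00545 (with TEX26-AS1 on the opposite strand) and 46.4% for LINC01089, and LINC00680 shares 15.9%, most with GUSBP1. The levels of these genes are uncertain to that extent. Without these and the coding genes, 39 LINC genes remained, with 9 raised and 7 lowered from H1 to APLNR+ cells, and 1 raised (LINC01021) in the last step. LINC00969 had no gene model, so that its shared sequence was not measured, and it is counted among the 39.

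Promoters, taken as the RefSeq windows of 250 bases before to 50 bases after the start of transcription on GRCh38.p14, were at hand for 37 of the 55 genes. They were searched for CpG, the dinucleotide that is dense in the promoters of most widely expressed genes. Of the 18 genes with a range of 2 or more, 7 had a promoter, with a median of 3 CpG (2 to 43). Of the 16 genes with a range under 1, 12 had a promoter, with a median of 24 (7 to 38). Over all genes tested with a promoter the medians were 23 in 2189 genes with a range of 2 or more and 27 in 4061 with a range under 1. The gap among the LINC genes was thus wider than among all genes, but it rests on 7 promoters and was not tested. The promoters below show the contrast, with every CpG in capitals. LINC01867 and LINC02192 are the RNAs nearly limited to APLNR+ cells. LINC01140, at 4.60 ± 0.145 FPKM in CD43+ cells and 0.211 to 1.83 before, is limited to the late stages. LINC00667 and LINC01578 have a range under 1. LINC00963 goes against the contrast, with the largest range of the 37 and the most CpG. LINC01315, not printed, also goes against it, with 28 CpG and a range of 2.65.
LINC01867 (GRCh38.p14 chr2:52370398-52370697, plus strand): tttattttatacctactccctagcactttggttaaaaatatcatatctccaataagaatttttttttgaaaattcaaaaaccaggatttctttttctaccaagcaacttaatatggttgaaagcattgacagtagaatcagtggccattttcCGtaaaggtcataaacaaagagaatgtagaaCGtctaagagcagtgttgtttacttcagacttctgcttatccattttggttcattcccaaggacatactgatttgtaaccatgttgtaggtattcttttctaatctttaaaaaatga
LINC02192 (GRCh38.p14 chr16:47887081-47887380, minus strand): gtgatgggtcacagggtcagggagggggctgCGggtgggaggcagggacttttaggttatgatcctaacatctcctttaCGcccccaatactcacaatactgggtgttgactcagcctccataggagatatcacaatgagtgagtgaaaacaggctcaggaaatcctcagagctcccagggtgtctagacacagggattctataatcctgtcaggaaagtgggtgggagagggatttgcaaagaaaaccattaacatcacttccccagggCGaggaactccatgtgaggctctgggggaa
LINC01140 (GRCh38.p14 chr1:87129515-87129814, plus strand): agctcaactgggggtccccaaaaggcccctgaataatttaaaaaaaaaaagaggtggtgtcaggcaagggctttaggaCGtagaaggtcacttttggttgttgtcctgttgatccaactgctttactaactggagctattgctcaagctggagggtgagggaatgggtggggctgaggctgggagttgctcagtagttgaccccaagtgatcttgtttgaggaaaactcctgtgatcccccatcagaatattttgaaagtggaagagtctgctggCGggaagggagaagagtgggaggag
LINC00667 (GRCh38.p14 chr18:5237850-5238149, plus strand): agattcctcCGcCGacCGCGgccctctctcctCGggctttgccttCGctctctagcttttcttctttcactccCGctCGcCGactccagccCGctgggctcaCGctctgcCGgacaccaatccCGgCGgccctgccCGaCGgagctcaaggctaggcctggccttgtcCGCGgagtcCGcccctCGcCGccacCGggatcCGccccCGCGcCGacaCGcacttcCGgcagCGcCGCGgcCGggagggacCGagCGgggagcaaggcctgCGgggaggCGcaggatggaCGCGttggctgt
LINC01578 (GRCh38.p14 chr15:92882593-92882892, plus strand): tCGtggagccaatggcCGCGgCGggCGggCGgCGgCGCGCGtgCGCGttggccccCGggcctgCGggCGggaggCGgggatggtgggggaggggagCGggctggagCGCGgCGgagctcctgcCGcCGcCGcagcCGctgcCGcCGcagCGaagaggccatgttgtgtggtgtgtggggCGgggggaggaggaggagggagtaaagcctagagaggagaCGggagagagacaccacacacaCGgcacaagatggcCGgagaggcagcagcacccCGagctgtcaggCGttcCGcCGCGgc
LINC00963 (GRCh38.p14 chr9:129488410-129488709, plus strand): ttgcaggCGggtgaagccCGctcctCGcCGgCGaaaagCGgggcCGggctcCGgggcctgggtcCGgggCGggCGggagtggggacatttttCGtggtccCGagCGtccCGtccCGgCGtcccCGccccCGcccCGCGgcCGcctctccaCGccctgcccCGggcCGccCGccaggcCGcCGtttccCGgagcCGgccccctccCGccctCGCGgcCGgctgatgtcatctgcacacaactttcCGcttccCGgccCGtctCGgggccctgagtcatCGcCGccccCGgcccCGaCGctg

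The windows of LINC01867 and LINC01140 held 2 CpG each and that of LINC02192 held 3, at GC contents of 31.7%, 49.3% and 51.7%. Those of LINC00667, LINC01578 and LINC00963 held 38, 36 and 43, at 72.0%, 74.7% and 78.0%. The box CCAAT, which NF-Y is known to bind, was found on either strand in 24 of the 37 promoters (64.9%). The share was 35.7% of all 27305 promoters of the table and 36.7% of the 10830 promoters of genes tested. By population it was in 9 of 12 promoters of genes highest in H1, 8 of 9 for APLNR+, 3 of 7 for CD31+CD34+ and 4 of 9 for CD43+ cells. TATAAA was in 3 of the 37 (8.1%), beside 12% of all promoters and 5.8% of those of genes tested. The octamer ATGCAAAT and the ETS-type motif CAGGAAGT were each in 1. They were in 1.8% and 3.2% of all promoters and in 1.5% and 3.3% of those of genes tested. The GATA-type motif AGATAAG and the T-box-type motif AGGTGTGA were in none. They were in 2.6% and 1.0% of all promoters and in 1.5% and 0.7% of those of genes tested. These are matches of letters, on both strands and with no overlap among motifs removed, and they say nothing of binding.

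**Figure D5:**
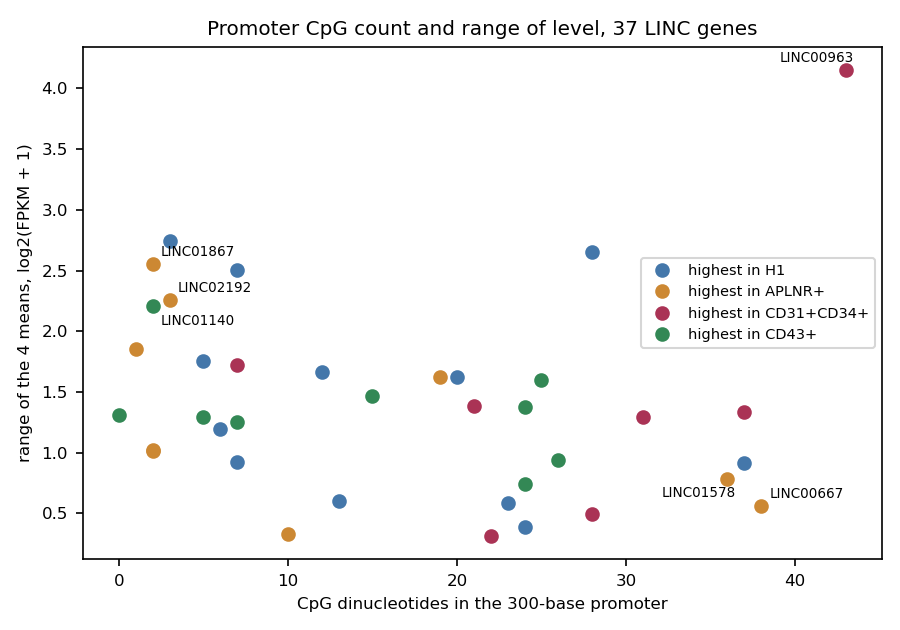
Range of the 4 population means (log2(FPKM + 1)) against the number of CpG dinucleotides in the 300-base promoter window, for the 37 LINC genes with a promoter, colored by the population of the highest mean. Named points are the 6 genes whose promoters are printed, among them LINC00963 with 43 CpG and a range of 4.15.

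A list of 70 better-known long noncoding and structural RNA genes that carry other names was set beside the LINC genes, 67 of them in the table and 47 tested. The list includes PURPL and CHASERR, the newer names of LINC01021 and LINC01578, and CHASERR is in the table only under its LINC symbol. From H1 to APLNR+ cells 10 were raised and 6 lowered, 21.3% and 12.8% of the 47, beside 8.3% and 7.62% of all genes. At the next step these were 4 and 11 (8.5% and 23.4%, beside 12.5% and 17.1%), and at the last step 8 and 6 (17.0% and 12.8%, beside 5.58% and 8.79%). No difference between these shares was tested. ESRG, an RNA of pluripotent cells, had means of 24.6 ± 0.551, 2.82 ± 0.228, 0.0480 ± 0.0293 and 0.0312 ± 0.00525 FPKM in H1, APLNR+, CD31+CD34+ and CD43+ cells, an order like that of LINC00678. GATA6-AS1, antisense to the GATA6 gene, was at 0.00975 FPKM in H1, 32.6 ± 4.37 in APLNR+ cells, 5.13 ± 0.839 at the CD31+CD34+ stage and 0.639 ± 0.232 in CD43+ cells, an order like that of LINC01198. NEAT1, the scaffold of paraspeckles, was at 0.722 ± 0.0097 FPKM in H1 and 15.9 to 26.1 in the 3 later means. CYTOR was at 20.2 ± 2.00 in H1 and 115 ± 6.03 in CD43+ cells, and it rose at both later steps, by 1.23 (adjusted p = 3.5e-06) and 1.15 (adjusted p = 1.21e-05). GAS5, a small nucleolar RNA host, was lowest in CD31+CD34+ cells (172 ± 18.9 FPKM) and rose by 1.65 in the last step (adjusted p = 5.76e-08), to 541 ± 45.8. In every population GAS5 was above the highest mean of each LINC gene except LINC00678, in FPKM.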

How the data were processed

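H1, APLNR+, CD31+CD34+ and CD43+ cells gave 3 TruSeq libraries each, from Trizol-extracted RNA. The authors deposited 1 table of FPKM values for the 12 libraries. The submitters' processing notes name hg19, BWA, Bowtie and RSEM, and the annotation is not given in the sources used here. The table holds no counts, read depth is therefore unknown, and no count model or interval was used. From its 58365 lines with values, each repeated symbol was represented by its line of highest mean (1 line of text was left out).

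Genes at 1 FPKM or more in at least 3 libraries (14840) were fitted on log2(FPKM + 1) with limma 3.58.1 in R 4.3.3 (trended eBayes, 4 populations in 1 model, Benjamini-Hochberg adjustment over all genes). A call needed a 2-fold change with an adjusted p below 0.05. The fit was tested on simulated data. It has no replicate block. Libraries that share a replicate number deviated together from their population means in all 3 pairs for CD31+CD34+ against CD43+ cells (r = 0.192 to 0.392) and for H1 against CD43+ cells (0.174 to 0.386), but in 2 of 3 pairs (over 0.1) for H1 against APLNR+ and 1 of 3 for APLNR+ against CD31+CD34+ cells. This pairing comes from the data, not the labels, and replicate 1 was the shallowest library of each population. Named genes were the 6 with the highest mean in each population, the 3 largest rises and falls of each comparison without overlap of libraries, the 4 with the smallest range, those next to the level of 3 FPKM, and those with a listed role. The nearest flanking coding genes, gene types and promoters came from RefSeq (GRCh38.p14), and exons from GENCODE 29, by name. The genes and lists were chosen with earlier results of these data known. Alternatives changed the pseudocount, filter, scaling, model terms, level and libraries used. A gene among those nearest in profile is not reported here.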

Additional observations from a re-analysis of the deposited data

How the results depend on the processing

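The calls rest on 3 libraries per population and on FPKM values without counts, so that the precision of a value near 0 is not known. With a pseudocount of 0.1 in place of 1, the last step from CD31+CD34+ to CD43+ cells had 5 LINC genes raised and 12 lowered, and 11 called among those that reached the level elsewhere. With only genes of a mean of 5 FPKM or more tested, which leaves out most of the LINC genes, the counts raised and lowered were 5 and 1 from H1 to APLNR+ cells, 3 and 5 at the next step (8 called among those that reached the level elsewhere), 1 and 4 at the last step, and 3 and 6 from H1 to CD43+ cells. With no minimum change they were 17 and 16, 16 and 25, 17 and 14, and 18 raised from H1 to CD43+ cells. In an alternative chosen after seeing the data, without coding LINC genes and those sharing reads, 1 was raised at the last step and 6 from H1 to CD43+ cells. Leaving out each library in turn gave 2 to 4 raised at the last step, 4 being the count without CD43+ replicate 3. The share of all genes called under each of these settings is not given here. The counts therefore do not show how the LINC genes stood beside other genes under them.

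At a level of 1 FPKM 132 LINC genes qualified, with 44 highest in H1, 29 in APLNR+ cells, 24 at the CD31+CD34+ stage and 35 in CD43+ cells. At 10 FPKM these were 17, with 6, 6, 1 and 4. With genes over 10000 FPKM left out and the rest scaled to the same sum, which raises the values, they were 108, with 33, 31, 21 and 23. That scaling moved the median of all genes to -0.18 from APLNR+ to CD31+CD34+ cells and to -0.25 from H1 to CD43+ cells. The log2 changes of 31 named LINC genes were compared 2796 times with those under other settings. None turned the sign of a called change, 6 ended a call and 61 added one. Of the added calls, 39 came from dropping the 2-fold limit, which is no refit and can only add calls.

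Same-numbered libraries deviated together in part. Of 18 same-number correlations of deviations from the population means over all pairs of populations, 12 were over 0.1, and 23 of 36 best matches were with the own number. A replicate block changed 0 calls of LINC genes in the 4 comparisons, with 11 raised and 8 lowered from H1 to APLNR+ cells and 2 and 7 at the last step as without it.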

Other observations

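A further 77 LINC genes had a highest mean from 1 to under 3 FPKM. Of these, 27 were highest in H1, 15 in APLNR+ cells, 15 at the CD31+CD34+ stage and 20 in CD43+ cells, beside 17, 14, 9 and 15 of the 55 more abundant genes. APLNR+ cells thus held no more of the 77 than the CD31+CD34+ stage did. The following were chosen after their values were seen. LINC02301, counted as highest in H1, was at 7.96 FPKM in H1 replicate 3 and listed at 0 in the other H1 libraries. LINC00479 was at 2.72 FPKM in APLNR+ cells and 0.007 in H1. LINC00379 was at 2.09 FPKM in CD31+CD34+ cells and 0.402 or less in the other populations. LINC02356 was listed at 0 in H1 and had means of 0.0523, 0.527 and 2.46 FPKM in APLNR+, CD31+CD34+ and CD43+ cells.

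Summed over the 55 genes, the level was 502 to 518 FPKM in the H1 libraries, 405 to 460 in APLNR+, 283 to 320 in CD31+CD34+ and 313 to 367 in CD43+ cells. The sum over all genes ranged from 567793 to 1564449 FPKM and varied with a few genes over 10000 FPKM. As a percentage of the sum without those, the LINC genes made up 0.102 to 0.114 in H1 and APLNR+ libraries and 0.0630 to 0.0676 in the later libraries. Without LINC00678, LINC00467 and LINC00458, the other 52 genes made up 0.0600 to 0.0652 in H1 and 0.0622 to 0.0631 in APLNR+ libraries. They made up 0.0609 to 0.0633 in CD31+CD34+ and 0.0628 to 0.0673 in CD43+ libraries. These 3 genes were left out because they are highest in H1 or APLNR+ cells, which by itself lowers the early shares. Without LINC00116 as well, the other 51 genes made up 0.0477 to 0.0522 in H1 and 0.0540 to 0.0552 in APLNR+ libraries. The later shares were then 0.0425 to 0.0451 in CD31+CD34+ and 0.0438 to 0.0490 in CD43+ libraries, so that APLNR+ libraries stayed above them.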
